A study of Mus musculus with 96 samples.

Results

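The genes described here are 43 components of bone morphogenetic protein (BMP) and transforming growth factor beta (TGF-beta) signalling, taken by symbol from a list that runs from ligands through receptors and Smads to targets, antagonists and feedback regulators. All 43 were among the 22422 genes held in the data. The tissue was the embryonic mouse neural tube at E11.5, and it was compared between wild-type C3HeB animals and C3HeB heterozygotes for the Eif3c allele Xs-J, a mutation in a subunit of the translation initiation factor eIF3. Each of 3 pools per genotype was split after dissociation, and one portion went to ribosome profiling (footprints of 80S ribosomes on mRNA) and the other to poly(A) RNA-seq, which gave 12 libraries in 4 groups of 3. A pool held the neural tubes of a single litter, both genotypes carry the C3HeB background, and one copy of Eif3c remains in the mutant. The labels do not say whether pools of the 2 genotypes with the same number were littermates.

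BMP and TGF-beta ligands are secreted dimers that bring type I and type II serine/threonine kinase receptors together. The type I receptor then phosphorylates a receptor Smad, which joins the common Smad4 and enters the nucleus. In the dorsal neural tube, BMPs from the roof plate pattern progenitors, the Id genes and the inhibitory Smads are direct targets, and Smad6, Smad7, Smurf1, Smurf2, Ski and Skil dampen the signal. Secreted proteins such as Nog, Chrd, Fst and Twsg1 bind ligands outside the cell.

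The sequences below come from genes whose ribosome occupancy is described further down, and their part in that occupancy was not tested. They were read from the GENCODE vM21 transcript (build mm10) used for each gene and are written 5′ to 3′. Each window has 27 bases, with the annotated start codon in capitals. The first 4 genes had few footprints per RNA in wild type, the next 4 had many, and the last 3 are genes whose footprints are followed further down.
Smad6: aaagggtatcgtATGttcaggtctaaa
Smurf2: gccgctggggacATGtctaaccccgga
Chrd: ctgctccgcgtcATGccgagcctcccg
Bmp4: tgtcaagacaccATGattcctggtaac
Tgfb2: ccttttaaaaacATGcactactgtgtg
Id2: cctacgagcagcATGaaagccttcagt
Smoc1: tccgctggcaccATGctgcccgcgcgc
Id1: gttctcaggatcATGaaggtcgccagt
Ski: cccgatcgcaccATGgaagctgcagcg
Acvr2b: gcgccgcggaacATGacggcgccctgg
Id4: aggaagcgcgcgATGaaggcggtgagc
The leader (annotated 5′ UTR) of Smad6 holds 10 upstream ATGs, all followed by a stop codon in frame within the leader. A pair of these short upstream reading frames is shown whole, with start and stop codons in capitals, beside the single one in the leader of Tgfb2. They begin 519, 1025 and 1098 bases before the main start codon, in the order shown.
Smad6 frame at 519: ATGggagttatccacaagcctTAG
Smad6 frame at 1025: ATGatgggaggcagccaaTGA
Tgfb2 frame at 1098: ATGgagagaagtattagggttTAA
In mm10 the gene Smad6 lies at chr9:63953076-64022059 (minus strand), Tgfb2 at chr1:186622792-186705989 (minus), Id2 at chr12:25093799-25097140 (minus), Id4 at chr13:48261228-48266026 (plus), Ski at chr4:155154075-155222592 (minus) and Acvr2b at chr9:119402118-119434995 (plus).

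Coding counts summed to between 7.2 M and 13.1 M reads (M for mega) per RNA library and between 11.3 M and 59.2 M reads per footprint library. Values below are in CPM, the count relative to library size after scaling by the trimmed mean of M values (TMM), and every ± is an SD over 3 libraries unless it follows a log2 difference, where it is the standard error of the fit. Eif3c itself had 518, 497 and 474 CPM of RNA in wild type and 296, 290 and 302 CPM in the mutant, a log2 difference of -0.75 ± 0.06 (edgeR quasi-likelihood test, adjusted p = 6.15e-04). Its footprints differed by -0.98 ± 0.07 (adjusted p = 0.00131 in the same kind of test). Neural progenitor and neuronal markers were high in every library, with Sox2 RNA between 228 and 248 CPM and Tubb3 RNA between 1242 and 1581 CPM. Marker lists of other cells were also summed, and no cell type was called from them. The 6 notochord markers were T, Noto, Krt19, Shh, Foxa2 and Chrd, itself among the genes described here. Noto was at 0 in all 12 libraries, while 4 had a mean RNA of at least 1 CPM. The RNA of this list summed to 63.1 to 83.3 CPM in wild type and 69.3 to 108 CPM in the mutant, highest in mutant pool 1. Chrd gave 23.1 to 25.9 CPM of that in wild type and 18.96 to 22.65 CPM in the mutant. Of 8 surface epithelium markers, whose RNA summed to at most 4.51 CPM, Krt14 was at 0 throughout. The footprints of 17 mesenchyme and somite markers summed to 1132 to 1319 CPM in wild type and 2061, 1407 and 1300 CPM in the mutant. Of these markers 16 of 17 were higher and 0 passed the test. Their RNA summed to 890, 597 and 1009 CPM in wild type and 1030, 701.5 and 766 CPM in the mutant, which overlap. In RNA 11 of 16 tested were higher and 0 passed. The part of these markers in the results below was not tested. Mutant pool 1 stood apart from the rest, with 6504 CPM of RNA summed over 12 erythroid markers against 2753 to 3441 CPM elsewhere and 691 CPM over 15 endothelial and pericyte markers against 422 to 495 CPM. Of the 12 erythroid markers, 12 were higher in the mutant in RNA and 11 in footprints, and 1 passed the test in each assay. Of the endothelial and pericyte markers 0 passed in either. Neuronal marker RNA (15 genes summed) was lower in all 3 mutant pools, at 5535 to 6419 CPM against 6757 to 7044 CPM, with 0 of 15 genes passing the test at an adjusted p of 0.05. Roof plate marker RNA (10 genes summed) was higher in all 3, at 122 to 180 CPM against 99.6 to 111 CPM, with 0 of 10 passing. In tissue made of many cell types, fewer cells of a type and less RNA per cell cannot be told apart.

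In wild-type neural tube the most abundant mRNAs among the 43 genes, per length of coding sequence, were those of the Id proteins, which block basic helix-loop-helix factors. Id3 RNA stood at 255, Id2 at 161, Id4 at 157 and Id1 at 112 RPKM (the CPM divided by coding length in kilobases). Between them stood the kinase receptor Tgfbr1, at 141 RPKM, and the activin type II receptor Acvr2b, at 113 RPKM. The 3 wild-type libraries of Id3 lay above those of Id2, and the ranges of Id2 and Id4 overlapped. Of 42 steps between neighbours in the order of RNA levels, 30 had overlapping wild-type ranges.

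Ligand mRNAs were scarce. Gdf11, which acts through the Smad2 and Smad3 branch, was the exception at 59.6 RPKM. Tgfb2 had 11.45 RPKM, Tgfb1 8.72, Bmp4 5.81, Bmp5 3.52, Tgfb3 3.30 and the activin subunit gene Inhbb 2.92 RPKM. Bmp2 had 0.394 RPKM, and Smad9, the third BMP receptor Smad, had 0.141 RPKM. Bmp2 and Smad9 did not pass the filter on low counts and enter no test, so 41 of the 43 genes were tested in each assay. The receptor Smads in use were Smad5 at 79.7, Smad2 at 59.97, Smad1 at 49.5 and Smad3 at 37.5 RPKM, and the common Smad4 had 98.3 RPKM. Corepressor mRNAs were also plentiful, with Skil at 85.7 and Ski at 56.1 RPKM. The inhibitory Smads were less abundant, Smad7 at 19.7 and Smad6 at 11.7 RPKM. Among secreted antagonists, Twsg1 (55.0 RPKM) and Smoc1 (32.5 RPKM) exceeded Fst (11.2), Nog (9.57), Chrd (8.63), Ltbp1 (5.71), Bmper (5.06) and Chrdl1 (1.84 RPKM).

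**Figure D1:**
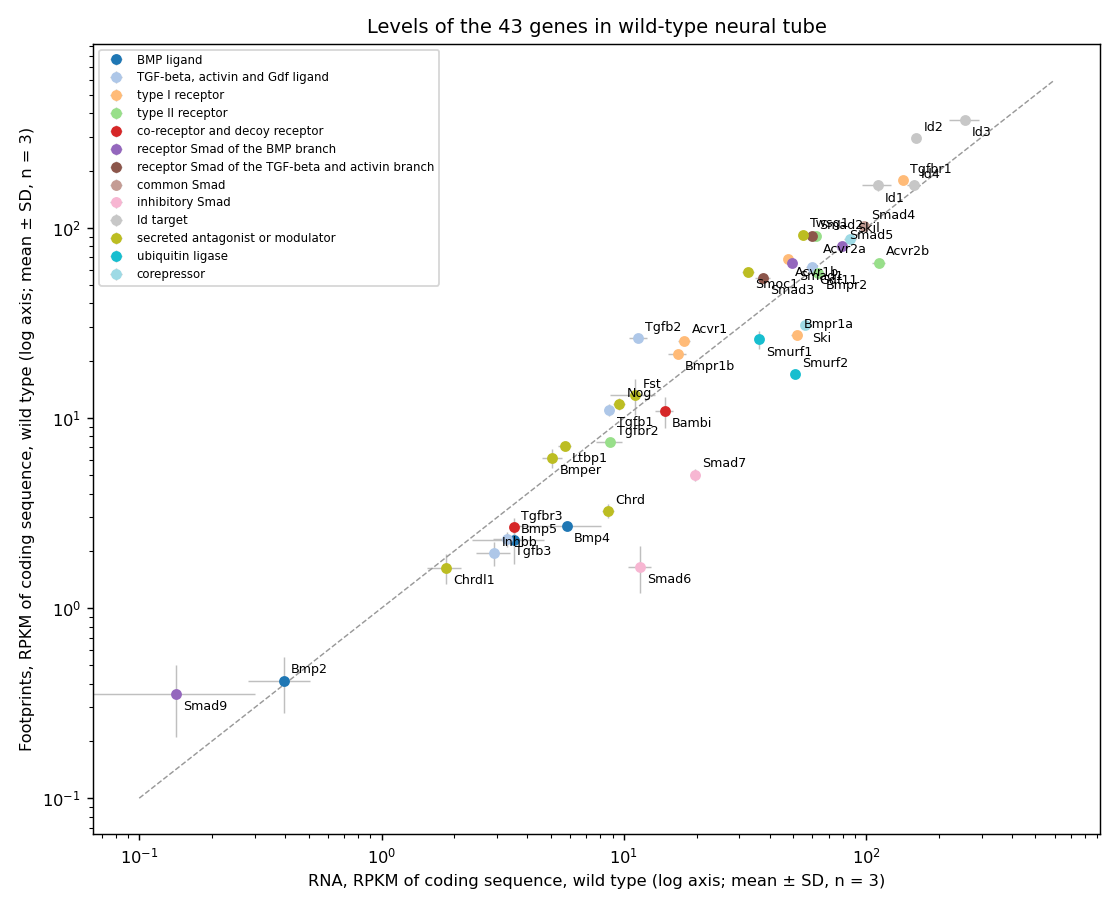
RNA against footprints in wild type for the 43 genes, both in RPKM of coding sequence on log axes, with points at the mean of 3 libraries, bars of 1 SD and colours by role. The dashed line marks equal values: Smad6 (11.7 RPKM of RNA, 1.65 of footprints) and Smad7 (19.7 and 5.04) lie farthest below it, and Tgfb2 (11.45 and 26.3) farthest above it among genes that passed the filter.

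Footprints per RNA in wild type differed widely within the pathway. This ratio is relative to the average gene, since each assay is scaled to its own total. Of 41 genes tested, 18 had a ratio above the average and 9 below it at adjusted p under 0.05 (edgeR, over 12 libraries). Across all 13877 genes tested the same calls were made for 35.5% above and 36.3% below, 71.8% together of genes, so a call in this comparison is common. The median log2 ratio was 0.16 over the members and 0.01 over all genes tested.

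Among the members tested, the inhibitory Smads, which bind activated receptors and recruit Smurf ubiquitin ligases, carried the fewest footprints for their RNA. Smad6 RNA was 16.3, 15.1 and 18.6 CPM in the wild-type pools and its footprints were 2.58, 1.63 and 2.88 CPM. Its log2 ratio of footprints to RNA was -2.66 ± 0.24, which is 0.158 of the average gene's ratio (edgeR, adjusted p = 1.42e-07). With all annotated transcripts of each gene summed, the value for Smad6 was -1.70. Smad7 RNA was 22.8, 24.7 and 24.9 CPM with 5.64, 6.45 and 6.38 CPM of footprints, a log2 ratio of -1.88 ± 0.13 (adjusted p = 1.05e-08). In both genes every wild-type footprint value was below every wild-type RNA value by a wide margin.

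After them came Smurf2, an E3 ubiquitin ligase that targets receptors and Smads, at -1.48 ± 0.08, and the BMP antagonist Chrd at -1.32 ± 0.12. Bmp4, the dorsal ligand, followed at -0.99 ± 0.28. The Bmp4 value rested on wild-type pool 1, whose RNA was 9.68 CPM against 4.69 and 5.98 CPM in the others. Without that pool the log2 ratio was -0.60, and edgeR's adjusted p was 0.127. At the other end stood Tgfb2, at 1.30 ± 0.10 or 2.47 times the average gene's ratio. It had 13.5, 12.5 and 14.7 CPM of RNA and 30.2, 31.3 and 31.8 CPM of footprints. Id2 (0.98 ± 0.09), Smoc1 (0.96 ± 0.07), the BMP-binding protein Twsg1 (0.84 ± 0.08) and Id1 (0.69 ± 0.13) completed the upper 5. All 4 Id genes had positive values, and Id4 (0.20 ± 0.11) did not pass the test. With the pool as a block, which pairs RNA and footprints of the same cells, 34 members passed (21 above and 13 below). The 27 stayed among them, and Bambi, Bmp5, Fst, Id4, Inhbb, Tgfb1 and Tgfbr3 were added. The share of 71.8% over all genes belongs to the fit without this block. The count of 34 therefore has no matching share here and is not read as a trait of the members.

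The genes at the extremes also differed in their leaders. Transcript sequence of matching length was at hand for 39 of the 41 tested genes. The leader of Smad6 has 1035 bases and 10 upstream ATGs, and 270 of those bases are coding sequence in another annotated transcript of Smad6. The leader of Smad7 has 1427 bases and 6 upstream ATGs. In both, as the window printed above shows for Smad6, the base 3 before the start codon is C and the base just after it is T. A pyrimidine at the former position with no G at the latter was present in 5 of the 39 genes (Smad5, Smad6, Smad7, Tgfb1 and Tgfb3) and in 7.73% of the 13125 genes tested with such sequence. The median log2 ratio of those 5 was -0.45, but they include Smad6 and Smad7, in which the context was first read. The others were Tgfb3 at -0.45, Smad5 at 0.10 and Tgfb1 at 0.42. Over all genes the median was -0.18 with this context and 0.03 without it.

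Long leaders with many ATGs (letters ATG in any frame, sense strand) were common among the members. At least 3 upstream ATGs were found in 12 of 39 members, 30.8%, against 17.3% of all genes. A leader of 1000 bases or more was found in 6 of 39, 15.4%, against 1.28%. Across all genes the median log2 ratio was 0.23 without an upstream ATG, -0.14 with 1 or 2 and -0.47 with 3 or more. The members' medians were 0.38 (n = 15), 0.44 (n = 12) and -0.44 (n = 12). These are descriptions across genes, which are not replicates, and exceptions were plain: Tgfb2 reached the highest ratio with 1215 bases and 1 upstream ATG, Smad2 reached 0.69 with 8 upstream ATGs, and Chrd had -1.32 with 19 bases and none. Bmpr2, the BMP type II receptor, sat at -0.04 with 1253 bases and 10 upstream ATGs.

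**Figure D2:**
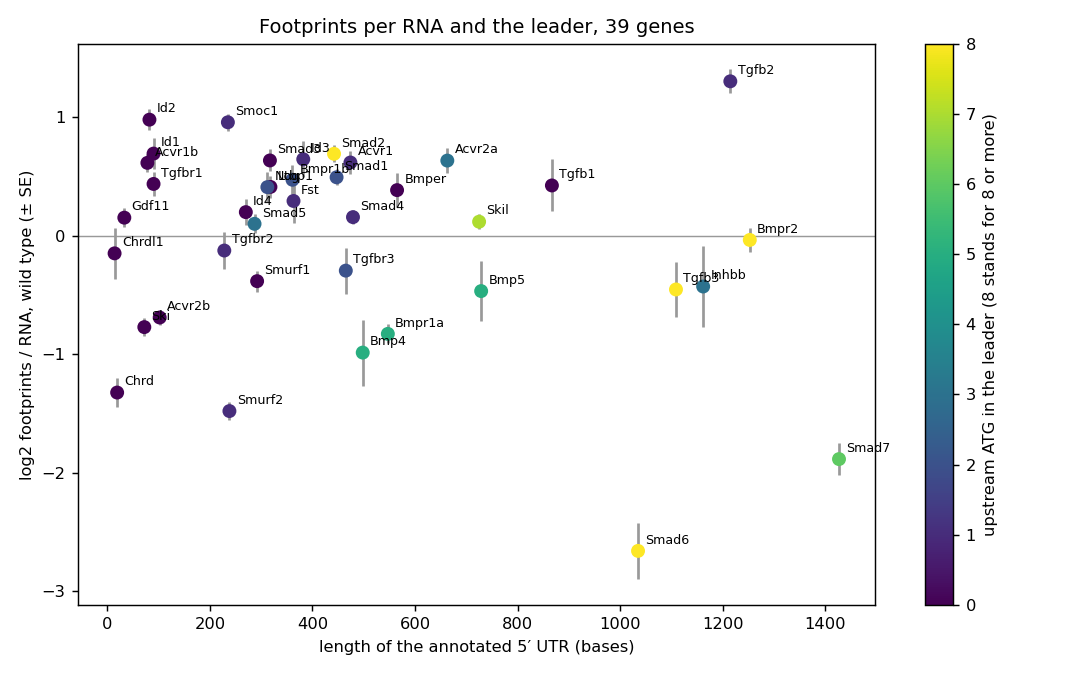
Log2 ratio of footprints to RNA in wild type (± SE) against the length of the annotated leader in bases for the 39 genes with matching sequence, coloured by the number of upstream ATGs. Smad6 and Smad7 lie lowest at 1035 and 1427 bases, and Tgfb2 lies highest at 1215 bases.

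The main question of the design is what the heterozygous Eif3c mutation does to these mRNAs and their translation. At the level of RNA 0 of 41 genes passed an adjusted p of 0.05 in edgeR's quasi-likelihood test, where 0.388% of 13406 genes did. At an unadjusted p under 0.05 there were 7 (2 higher and 5 lower in the mutant), against a background of 17.5%. The median log2 difference was -0.04 over the members and 0.01 over all genes tested. For footprints 0 of 41 passed, where 0.253% of 13423 genes did. At an unadjusted p under 0.05 there were 12 (7 higher and 5 lower), against 22.8%, and the median was 0.02 for the members and 0.01 for all genes. With an offset for coding GC content the footprint median was -0.01 over 39 members and 0.01 over all genes, and 5 of the 39 turned sign. DESeq2 called 1 member in RNA (Smoc1) and 5 in footprints (Bmpr2, Id1, Ski, Skil and Smad7), within totals of 408 and 835 genes. Without mutant pool 2, edgeR called 6 members in RNA and 8 in footprints, within totals of 1522 and 2333 genes. Without mutant pool 1 it called 0 in both.

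**Figure D3:**
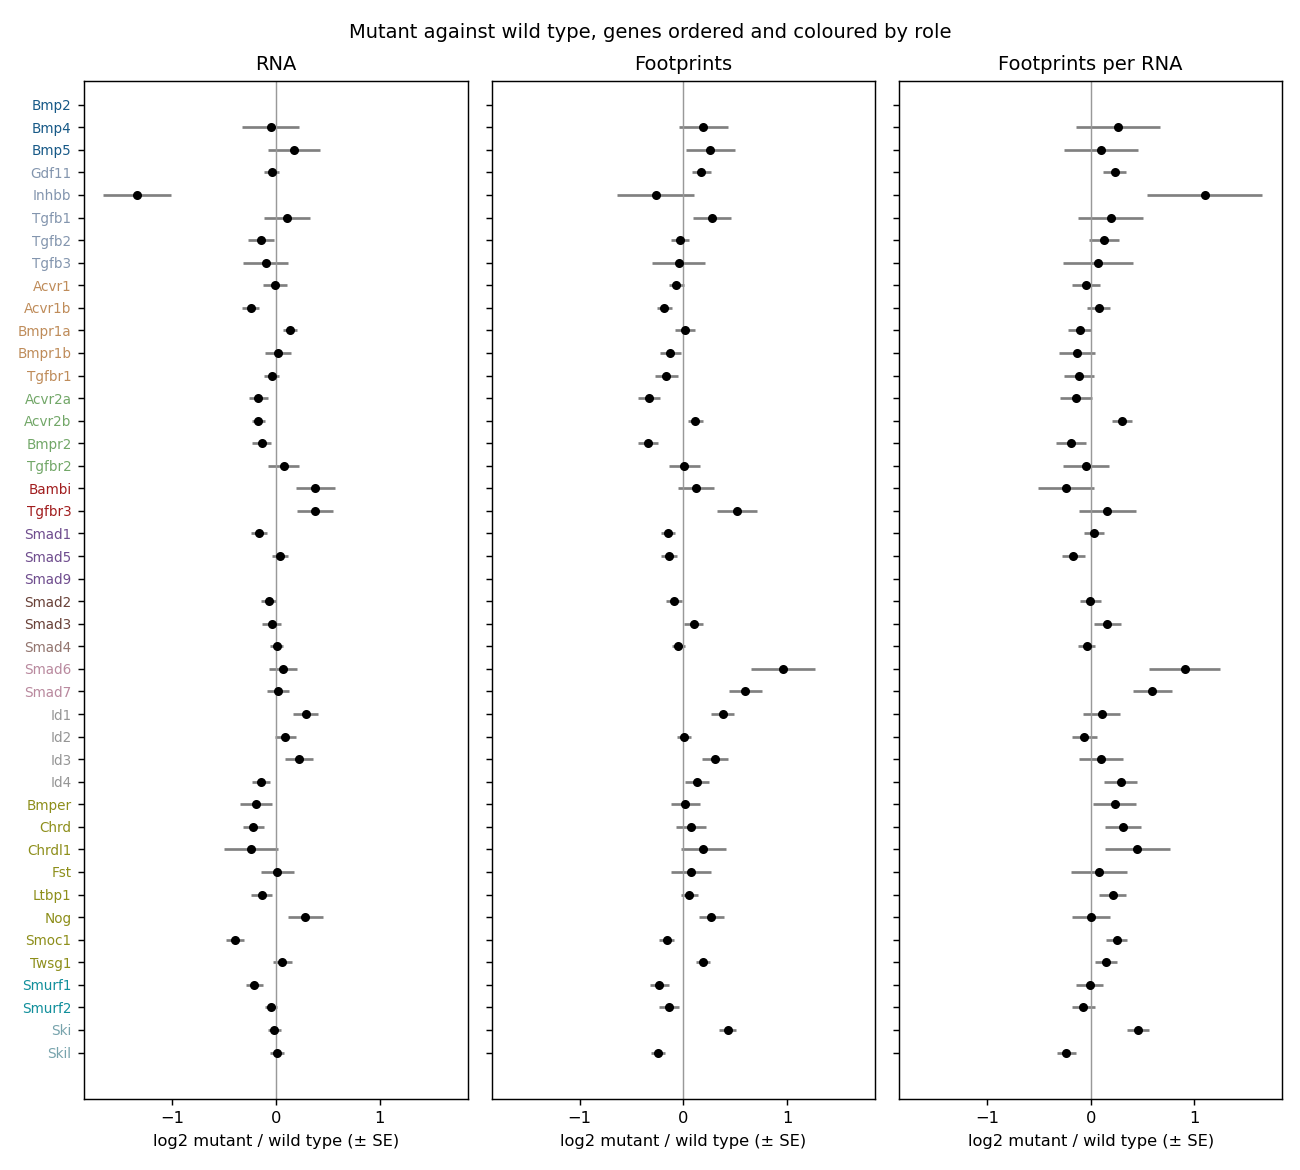
Log2 difference between mutant and wild type (± SE) in RNA, footprints and footprints per RNA for each gene, ordered and coloured by role. Bmp2 and Smad9 were not tested and have no point, and no point passed the adjusted threshold. Smad6 and Smad7 lie at 0.96 and 0.60 in footprints with RNA at 0.07 and 0.02.

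Among the 41 members tested, the inhibitory Smads had the largest positive footprint differences. Smad6 footprints were 2.58, 1.63 and 2.88 CPM in wild type and 4.55, 6.96 and 2.94 CPM in the mutant, and its RNA was 15.1 to 18.6 CPM against 15.1 to 20.3 CPM. The footprint groups did not overlap, although mutant pool 3 lay just above the wild-type range, and the RNA groups overlapped. The log2 difference in footprints was 0.96 ± 0.31 (edgeR, adjusted p = 0.131), and without mutant pool 2 it was 0.57. Smad7 footprints were 5.64, 6.45 and 6.38 CPM in wild type and 8.74, 11.3 and 7.80 CPM in the mutant, with RNA at 22.8 to 24.9 against 21.6 to 27.3 CPM. Again the footprint values did not overlap and the RNA values did. The difference of 0.60 ± 0.16 had an adjusted p of 0.0997 in edgeR and 0.0334 in DESeq2. Groups that do not overlap in footprints were found for 15 of the 41 genes and for 29.2% of all genes, and in RNA for 9 of 41 and 22.2%.

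The corepressors Ski and Skil, which bind Smad complexes and block transcription, differed in opposite directions. Ski footprints were 68.4, 63.5 and 64.0 CPM in wild type and 90.1, 94.9 and 78.7 CPM in the mutant. All 3 mutant values lay above the wild-type range, while RNA stood at 119 ± 4.09 and 118 ± 5.71 CPM. The footprint difference was 0.43 ± 0.08 (edgeR, adjusted p = 0.0686), the smallest p of the 41 members in that assay, and 0.26 after an offset for coding GC content. Skil footprints were 176, 166 and 171 CPM in wild type and 137, 143 and 154 CPM in the mutant, all lower, with RNA at 169 ± 9.59 and 170 ± 8.29 CPM. Its difference was -0.24 ± 0.07 (edgeR, adjusted p = 0.112), and -0.16 with the GC offset.

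Of the type II receptors, the BMP receptor Bmpr2 had 171, 180 and 179 CPM of footprints in wild type and 124, 160 and 134 CPM in the mutant. The activin receptor Acvr2a had 134, 130 and 137 CPM and 90.9, 126 and 102 CPM. In both the mutant values all lay below the wild-type range, with mutant pool 2 closest to it. The log2 differences were -0.34 ± 0.09 for Bmpr2 and -0.33 ± 0.11 for Acvr2a (edgeR, adjusted p = 0.104 and 0.132), and with the GC offset Acvr2a stood at -0.20. Their RNA differed by -0.14 ± 0.09 and -0.17 ± 0.09, with overlapping groups. Acvr2b, the other activin receptor, had RNA of 160, 179 and 163 CPM in wild type and 148, 149 and 150 CPM in the mutant, so all 3 mutant values were lower, and footprints of 97.1 ± 2.93 and 105 ± 7.78 CPM, which overlapped. Its RNA differed by -0.17 ± 0.06 (edgeR, adjusted p = 0.19). Tgfbr2, the TGF-beta receptor, stood at 0.08 in RNA and 0.01 in footprints.

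Among type I receptors the activin receptor Acvr1b had 69.7, 71.5 and 66.9 CPM of RNA in wild type and 52.7, 63.7 and 59.8 CPM in the mutant. Its footprints were 99.4 ± 3.18 and 87.6 ± 5.61 CPM. Both assays were lower in all mutant pools, by -0.24 ± 0.08 and -0.18 ± 0.07 on the log2 scale (edgeR, adjusted p = 0.153 and 0.178). The BMP receptors Bmpr1a and Bmpr1b and the receptors Acvr1 and Tgfbr1 lay within -0.17 and 0.14 in both assays. The co-receptor Tgfbr3, which presents TGF-beta2 to the signalling receptors, had RNA of 8.52, 8.68 and 9.18 CPM in wild type and 14.2, 9.64 and 9.96 CPM in the mutant. Mutant pool 1, the pool with the high erythroid and endothelial marker sums, was farthest from the rest. The RNA difference was 0.38 ± 0.17 (edgeR, adjusted p = 0.283) and 0.16 without that pool; the part of the marker difference in it was not tested. Tgfbr3 footprints were 6.64 ± 0.762 and 9.63 ± 2.84 CPM, higher in all 3 mutant pools, with a difference of 0.52 ± 0.20 (edgeR, adjusted p = 0.168). The decoy receptor Bambi stood at 0.38 ± 0.19 in RNA and 0.12 ± 0.17 in footprints, with overlapping groups.

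The receptor and common Smads showed small differences. Smad1 RNA was 63.4, 66.0 and 69.4 CPM in wild type and 55.0, 61.2 and 61.4 CPM in the mutant, all lower, with a log2 difference of -0.16 ± 0.08 (edgeR, adjusted p = 0.294) and -0.11 without mutant pool 1. Its footprints, 87.0 ± 2.92 and 78.5 ± 3.81 CPM, did not overlap either. Smad2, Smad3, Smad4 and Smad5 lay between -0.14 and 0.10 in both assays, and their groups overlapped.

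Of the Id targets, Id1 had RNA of 42.9, 37.5 and 49.1 CPM in wild type and 60.04, 51.8 and 44.9 CPM in the mutant, which overlap. Its footprints were 68.7, 65.3 and 60.1 CPM and 98.3, 70.8 and 83.6 CPM. These did not overlap, with mutant pool 2 just above the wild-type range. The log2 differences were 0.29 ± 0.12 in RNA and 0.38 ± 0.11 in footprints (edgeR, adjusted p = 0.243 and 0.119). The RNA value was 0.18 without mutant pool 1 and also 0.18 without wild-type pool 2, and the footprint value was 0.18 with the GC offset. Id3 stood at 0.23 ± 0.14 and 0.31 ± 0.13 with overlapping groups. Id2 stood at 0.09 and 0.01, and Id4 at -0.14 and 0.13.

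**Figure D4:**
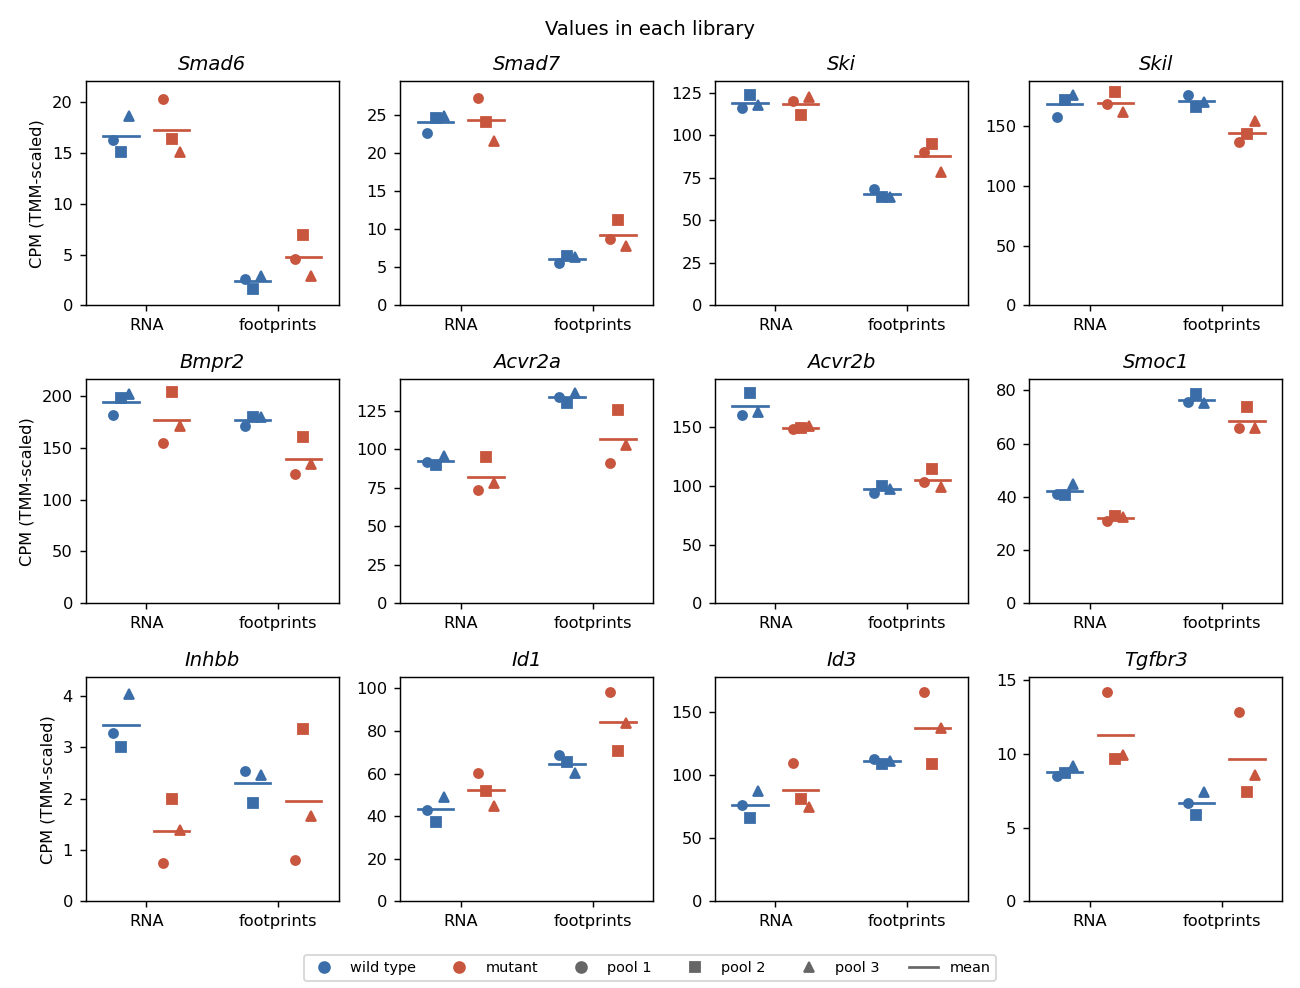
CPM in each library for 12 genes, RNA on the left and footprints on the right of each panel, with wild type in blue, mutant in red, a marker shape for each pool and a line at the mean. In Smad6, Smad7 and Ski the 3 mutant footprint values lie above the wild-type values while the RNA values overlap, and in Bmpr2, Acvr2a and Skil they lie below.

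Ligands gave the member with the largest RNA difference. Inhbb, which encodes the beta-B subunit of activins and inhibins, had RNA of 3.27, 3.00 and 4.03 CPM in wild type and 0.752, 1.99 and 1.38 CPM in the mutant. All mutant values were below the wild-type range, from as few as 10 reads in a library. The log2 difference was -1.34 ± 0.33 (edgeR, adjusted p = 0.0738). Its footprints, 2.30 ± 0.334 and 1.94 ± 1.30 CPM, overlapped, and differed by -0.27 ± 0.37. Bmp4, Bmp5, Gdf11, Tgfb1, Tgfb2 and Tgfb3 lay between -0.14 and 0.18 in RNA and between -0.04 and 0.28 in footprints.

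Among the secreted antagonists, Smoc1, a matricellular BMP inhibitor, had the smallest p of the 41 members in RNA. It had 41.0, 40.8 and 45.1 CPM in wild type and 31.2, 32.9 and 32.3 CPM in the mutant, with every mutant value lower. The log2 difference was -0.39 ± 0.08 (edgeR, adjusted p = 0.060; DESeq2, adjusted p = 0.025). Its footprints were 76.5 ± 1.88 and 68.5 ± 4.54 CPM, a difference of -0.16 ± 0.07. Twsg1 footprints were 55.4, 56.1 and 56.7 CPM in wild type and 65.9, 61.3 and 65.1 CPM in the mutant, all higher, at 0.19 ± 0.07 (edgeR, adjusted p = 0.156). Bmper, Chrd, Chrdl1, Fst, Ltbp1 and Nog lay between -0.24 and 0.28 in RNA and between 0.02 and 0.27 in footprints. Of these, Chrd RNA (all mutant values lower) and Nog footprints (all higher) did not overlap between genotypes. Smurf1, the ubiquitin ligase, had RNA of 78.8, 78.8 and 74.5 CPM in wild type and 63.4, 75.9 and 62.2 CPM in the mutant. These overlap, and differed by -0.21 ± 0.08 (edgeR, adjusted p = 0.231). Its footprints, 55.3 ± 5.92 and 47.2 ± 0.569 CPM, did not overlap and differed by -0.23 ± 0.09. Smurf2 stood at -0.05 and -0.13.

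Translational efficiency, the change in footprints per RNA, was tested as a genotype by assay term fitted to all 12 libraries. It passed the threshold for 0 of 41 members and 0% of 13877 genes with edgeR; 6 members had an unadjusted p under 0.05, against 9.84%, and DESeq2 called 0 members and 20 genes. The median was 0.10 over the members and 0.02 over all genes. With the offset for GC content it was 0.06 over 39 members and 0.01 over all genes, and 11 of the 39 turned sign. Ratios of footprints to RNA did not overlap between genotypes in 15 of 41 members and in 3179 of 13877 genes. Each pool gave both its RNA and its footprints, and with the pool as a block 113 genes passed, 1 of them a member.

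That member was Ski. Its log2 ratio of footprints to RNA was -0.76, -0.96 and -0.87 in the wild-type pools and -0.41, -0.23 and -0.64 in the mutant pools, higher in all 3. The difference was 0.46 ± 0.10 (edgeR, adjusted p = 0.302) without the block, 0.45 ± 0.10 with it (adjusted p = 0.0449), and 0.24 ± 0.10 with an offset for GC content and no block. Smad7 stood at -1.92, -1.86 and -1.88 in wild type and -1.59, -1.07 and -1.41 in the mutant, with no overlap and a difference of 0.60 ± 0.19 (edgeR, adjusted p = 0.43; 0.0716 with the block). Smad6 stood at -2.45, -2.88 and -2.50 in wild type and -2.04, -1.18 and -2.18 in the mutant. These did not overlap either, and differed by 0.91 ± 0.34 (edgeR, adjusted p = 0.435; 0.0777 with the block). Without mutant pool 2 the Smad6 difference was 0.48, and with the GC offset Smad7 stood at 0.39.

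The other genes of smallest p were of mixed role. Acvr2b ratios were -0.76, -0.84 and -0.74 in wild type and -0.51, -0.38 and -0.61 in the mutant, a difference of 0.30 ± 0.09, and 0.13 with the GC offset. Smoc1 had 0.88, 0.94 and 0.74 against 1.07, 1.15 and 1.02, a difference of 0.25 ± 0.10, and 0.16 with the GC offset. Inhbb had -0.31, -0.53 and -0.62 against 0.06, 0.63 and 0.20, a difference of 1.10 ± 0.55. In these 3 genes all mutant ratios were higher. RNA is the divisor of the ratio, so the lower RNA already described is not a separate observation. Skil had 0.16, -0.05 and -0.04 against -0.30, -0.32 and -0.07, all lower in the mutant, with a difference of -0.24 ± 0.09, and -0.11 with the GC offset. Gdf11 had 0.09, -0.09 and 0.17 against 0.47, 0.10 and 0.22, which overlap, with a difference of 0.23 ± 0.11, and 0.02 with the GC offset. Adjusted p for these 5 genes ran from 0.43 to 0.544 in edgeR.

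Footprints in leaders relative to coding sequence were compared next, since eIF3 acts in initiation. Over all genes, leader reads made up 13.9% to 14.0% of leader and coding footprints in the wild-type libraries and 14.2% to 16.7% in the mutant libraries, a median shift of 0.22 on the log2 scale over the genes tested. The test scales leader and coding counts separately, so its values are relative to that shift. Of 39 members tested (Bmp2, Smad9, Chrd and Chrdl1 had too few leader or coding reads), 4 passed an adjusted p of 0.05, where 5.79% of 10795 genes did. At an unadjusted p under 0.05 there were 8, against 22.8%. Unscaled leader shares were higher in all mutant libraries in 9 of the 39 members and in 2918 of the 10795 genes. They were lower in all mutant libraries in 1 member and in 368 genes.

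Id2 leader footprints made up 15.8%, 18.2% and 16.5% of its leader and coding footprints in wild type and 27.8%, 23.7% and 30.1% in the mutant. All mutant values were higher, and the ratio of leader to coding footprints rose by 0.68 ± 0.13 on the log2 scale (edgeR, adjusted p = 0.00794; unscaled, 0.88). Id4 had 58.6%, 58.2% and 61.0% in wild type and 53.4%, 51.0% and 51.3% in the mutant. There all mutant values were lower, and the ratio fell by 0.65 ± 0.12 (edgeR, adjusted p = 0.0075; unscaled, -0.43). Neither leader, of 82 and 270 bases, holds an upstream ATG. How reads across the start codon were placed is not stated. The part of such reads in the shares of short leaders, such as those of Id2 and Acvr2b, was not tested. In RNA from the same pools the leader share of Id2 was 16.4% ± 0.725 and 13.8% ± 1.01 and that of Id4 36.4% ± 1.57 and 36.4% ± 2.25 (wild type first). The Id2 values did not overlap and lay lower in the mutant, opposite to the footprints, and the Id4 values overlapped.

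Acvr2b, with a leader of 102 bases and as few as 51 leader footprints in a library, had 2.08%, 3.53% and 2.13% in wild type and 4.22%, 9.04% and 4.59% in the mutant, and its ratio rose by 1.13 ± 0.30 (edgeR, adjusted p = 0.0367; unscaled, 1.21). Mutant pool 2 was far above the rest, and without it the difference was 0.60 (adjusted p = 0.0943). Smad6 had 78.7%, 85.8% and 77.0% in wild type and 73.3%, 58.3% and 79.2% in the mutant. These ranges overlap, and its ratio fell by 0.93 ± 0.27 (edgeR, adjusted p = 0.049; unscaled, -0.78), and without mutant pool 2 the difference was -0.58 (adjusted p = 0.163). Smad7 had 79.7%, 77.9% and 80.2% against 78.7%, 73.6% and 76.5%, with a difference of -0.48 ± 0.15 that did not pass (adjusted p = 0.0674). In RNA the leader shares of Smad6 and Smad7 were 37.0% ± 3.78 and 49.8% ± 1.22 in wild type and 36.5% ± 0.945 and 48.4% ± 1.93 in the mutant, with overlapping values in Smad6 and in Smad7. Per base, wild-type footprints in the leader were 6.01 ± 2.02 times as dense as in coding sequence for Smad6 and 3.28 ± 0.237 times for Smad7, against a median of 0.851 over the 39 members and 1.23 over all genes tested. In Smad6, 270 of the 1035 leader bases are coding sequence in another transcript of the gene. The part of these bases in its leader shares and density was not tested. Leaving out wild-type pool 1 or wild-type pool 3 left 0 of 39 members past the threshold: without pool 1 the adjusted p was 0.0591 for Id4, 0.0834 for Id2, 0.205 for Acvr2b and 0.158 for Smad6, and without pool 3 it was 0.0568, 0.0541, 0.13 and 0.0755. Summing all transcripts of a gene left Id2 and Id4 past it, with Acvr2b at 0.33 (adjusted p = 0.18) and Smad6 at -0.66 (adjusted p = 0.0973).

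**Figure D5:**
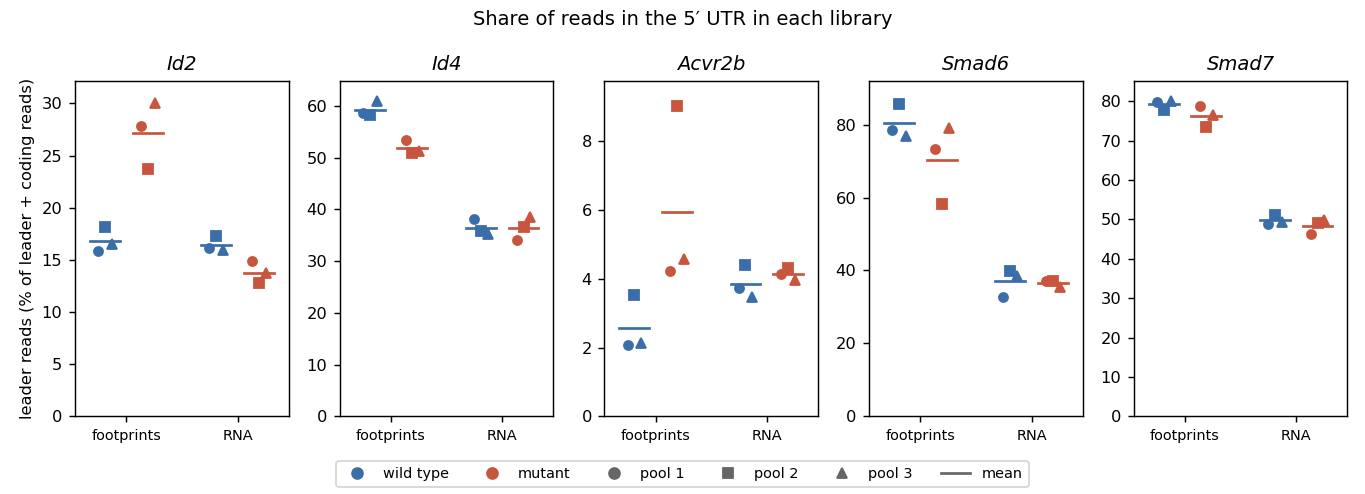
Leader reads as a percentage of leader and coding reads in each library, footprints on the left and RNA on the right of each panel, with wild type in blue, mutant in red, a marker shape for each pool and a line at the mean. In Id2 the mutant footprint shares (23.7% to 30.1%) lie above the wild-type shares (15.8% to 18.2%), and in Id4 they lie below.

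A second list holds 121 further genes of the pathway (other ligands, antagonists, receptors, targets and modulators), 90 of which were tested in RNA. Of these, 2 passed, against 0.388% of all 13406 genes tested, and the median was -0.01. Both were lower in the mutant. They are Skor1 and Skor2, neuronal corepressors related to Ski. Skor1 RNA was 79.5, 77.7 and 108 CPM in wild type and 37.3, 58.4 and 39.3 CPM in the mutant, and fell by 0.97 ± 0.16 on the log2 scale (edgeR, adjusted p = 0.0377). Skor2 RNA was 14.4, 14.1 and 15.99 CPM in wild type and 6.77, 9.85 and 6.80 CPM in the mutant, and fell by 0.93 ± 0.16 (adjusted p = 0.0391). Neither gene's groups overlap. Leaving out any wild-type pool or mutant pool 3 raised both adjusted p values to between 0.18 and 0.25. The summed neuronal markers were lower in the same pools, as given above, and their part in the difference was not tested.

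The next genes in RNA were Msx1 (0.74 ± 0.17, and 0.48 without mutant pool 1), a homeobox target of BMP, and Gdf1 (-0.65 ± 0.15), whose mRNA is shared with Cers1 so that its reads are uncertain. In footprints 0 of 92 passed, where 0.253% of all genes did, with a median of 0.08. At an unadjusted p under 0.05 there were 28 of these 92, against 22.8% of all genes. The smallest p values belonged to Msx1 (0.76 ± 0.15), the roof plate ligand Gdf7 (1.69 ± 0.34), the T-box gene Tbx2 (0.66 ± 0.14) and the ubiquitin ligase Nedd4l (-0.48 ± 0.11), with adjusted p of 0.0686, 0.0686, 0.0789 and 0.0829 in edgeR. Gdf7 footprints were 3.02, 2.96 and 3.46 CPM in wild type and 17.2, 7.29 and 6.47 CPM in the mutant, and without mutant pool 1 they differed by 1.12 (adjusted p = 0.0423). Msx1 and Gdf7 are themselves among the roof plate markers, whose summed footprints were 116 to 124 CPM in wild type and 139 to 204 CPM in the mutant, highest in mutant pool 1; the part of this difference in the values of Msx1 and Gdf7 was not tested. In translational efficiency 0 of 93 passed, with a median of 0.10. The smallest p values were those of Gdf1 (2.02 ± 0.37, adjusted p = 0.24, and 0.012 with the pool as a block), the Nodal antagonist Dand5 (1.14 ± 0.34), the deubiquitinase gene Usp15 (-0.28 ± 0.08) and the ubiquitin ligase gene Wwp1 (-0.33 ± 0.13), the latter pair at -0.08 and -0.09 with the GC offset. Gdf1 had only 0.52 to 0.61 CPM of footprints in wild type, and Dand5 only 0.84 to 0.98 CPM of RNA in the mutant, so both ratios rest on few reads. For the leader ratio 2 of 73 passed, where 5.79% of all 10795 genes tested did. They were the protease gene Bmp1 at 0.64 ± 0.16 and Usp11 at 0.80 ± 0.23, both higher in the mutant (edgeR, adjusted p = 0.030 and 0.049).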

How the data were processed

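Ribosome footprints and poly(A) RNA were sequenced from the same 6 litter pools, each library over 2 runs of 4 lanes. The authors deposited whole-number read counts per transcript and transcript part, and cutadapt, STAR, bedtools and the build mm10 are named in the submitters' processing notes. For the order of those steps, their versions and the rule that placed a footprint, nothing is stated by the labels. The parts summed to 105% of the whole transcripts, so some reads may count in more than one part. Lanes were summed per library. For mutant footprint pool 1, 4 of its lanes hold reads of at most 3 chromosomes and were left out, so its depth rests on 4 lanes. IDs were matched to GENCODE vM21, and 148 of 122941 IDs (0.327% of counts) matched no gene. One transcript stood for each gene, and coding counts leave out the first 15 and last 5 codons.

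Counts were tested with edgeR 4.0.16 in R 4.3.3 (quasi-likelihood test, TMM scaling, filterByExpr with a minimum count of 10 and minimum total of 15, Benjamini-Hochberg adjustment over all genes tested, threshold 0.05). RNA and footprints were fitted separately over 3 against 3 libraries. Translational efficiency was the genotype by assay interaction over 12 libraries, the wild-type ratio was the assay term of the same fit, and the leader ratio was the part by genotype interaction with the library as a block. The scripts were tested on simulated data. P-values measure the spread between litter pools, and the biological coefficient of variation was 8.16% for RNA and 9.97% for footprints.

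The paired RNA and footprint libraries share a pool of cells, and their deviations from the group means correlated at 0.297 to 0.634 over 11236 genes in all 6 pools, so the pool also served as a block for translational efficiency. Alternatives were DESeq2 1.42.0, other scaling, no filter, other counted parts, all transcripts or lanes summed, a block, and each library left out. Offsets for GC content were added after seeing the data. The members and lists were chosen with earlier results of these data known. Genes described most fully are members or other pathway genes past the threshold or, where fewer passed, the 8 members and 4 other genes of smallest p. To these are added the 5 highest and 5 lowest wild-type ratios, and the 4 members of smallest p for the leader ratio. Some are given per library and others, such as Msx1 and Tbx2, by difference or ratio alone. Other members are given by mean, range or difference.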

Additional observations from a re-analysis of the deposited data

How the results depend on the processing

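Counts of called genes depended on the setting. In RNA, 52 genes (30 higher, 22 lower) became 408 (132 and 276) with DESeq2, 462 (170 and 292) without a filter, 4 with counts of whole transcripts, 1 with all transcripts summed, 2 with GC content offsets and 1 to 1522 when a replicate was left out. Members called in RNA were 1 with DESeq2, 2 without a filter and 0 to 6 when a replicate was left out. In footprints, 34 genes (30 and 4) became 835 (442 and 393) with DESeq2, 243 (138 and 105) without a filter, 9 with all lanes summed, 22 with all transcripts summed and 8 to 2333 when a replicate was left out, and members were 5, 1 and 0 to 8 for DESeq2, no filter and a replicate left out. For translational efficiency, 0 genes became 20 with DESeq2 and 0 to 1 when a replicate was left out; with the pool as a replicate block 113 were called (71 and 42), 1 of them a member. Pools of the 2 genotypes with the same number deviated together at 0.0633 to 0.15 in RNA and -0.142 to 0.00458 in footprints, which does not meet the mark of 0.1 in every pair set for treating the numbers as a pairing and does not exclude one; with the number as a replicate block 196 genes (61 and 135) were called in RNA. For the leader ratio, 625 genes became 1010 without a filter, 308 with all transcripts summed, 312 with no replicate block and 42 to 1033 when a replicate was left out, and 4 members became 2, 1 and 0 to 4 for all transcripts, no block and a replicate left out. In wild type the count of 27 members called ranged from 24 to 32 when a replicate was left out and was 34 with the pool as a replicate block. In the main fit 71.8% of all genes were called, and the shares under these settings are not given here. Of the 27, 24 were kept without wild-type replicate 2 or 3 and 25 without wild-type replicate 1. Usp15 translational efficiency turned from -0.28 to 0.093 with all lanes summed; the added lanes hold at most 3 chromosomes. For the other changes the cause was not tested. Depth limits genes of few reads, such as Inhbb (from 10 RNA reads in a library), Chrdl1 (from 14) and Tgfb3 (from 19 footprints), and leaders such as that of Inhbb (from 9 footprints).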
